A study of Mus musculus with 8 samples.

Results

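Of the 21352 genes in allele-resolved chromatin profiles of mouse primordial germ cells, the precursors of eggs and sperm, 9 are described here. They are 7 genes known for maternal H3K27me3 imprints (Sfmbt2, Gab1, Jade1, Smoc1, Etv6, Bbx and Slc38a4) and 2 genes beside Slc38a4 on chromosome 15 (Slc38a1 and Slc38a2). The 9 genes were chosen by name, from what is known of imprinting and from their position, when the read levels and allele shares of these libraries were already known. Their shares and levels are therefore given as a description, without a test, and all 9 had reads in every library.

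The assay was low-input CUT&RUN, in which a nuclease tethered to an antibody cuts out the bound DNA for sequencing. One antibody recognised H3K27me3, the repressive histone mark of the Polycomb system, and the IgG control measured untargeted cleavage. Germ cells had been sorted from pooled embryos of 1 sex, all of them B6 x Cast hybrids carrying the Oct4-eGFP+/- reporter. The H3K27me3 libraries came from Xist KO/+ females of stages E11.5 and E12.5. The IgG libraries came from Xist KO/Y males at E11.5 and from Xist KO/+ females at E12.5 and E13.5, so every group carried the Xist knockout. There was 1 library in each of the 5 groups, hence no replicate spread, and all intervals below are 95% intervals that cover counting error alone. The second-replicate samples that the labels list for H3K27me3 were not analysed here.

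Reads could be placed on a first or a second allele, and the strain behind each is not stated. In the male IgG library 93.7% of X reads were on the first allele, and a male receives his X from his mother, so in that library the first allele was that of the maternal strain. The labels give the females the same strain entry and no direction of the cross. Whether an allele skew goes with the parent or with the strain of the allele was not tested. The 2 cannot be told apart in these libraries. The libraries held between 1357583 and 5705401 allele-assigned reads on chromosomes 1 to 19, and levels are given in RPM, reads per 1000000 of these reads. Median second-allele shares over autosomal genes lay between 50% and 50.8%. As a check of the cells, all 7 somatic gonad markers with H3K27me3 levels (Gata4 and Wt1 among them) were at least 2-fold above IgG at both stages. None of the germ cell markers was, among the 7 of 12 with enough reads at E11.5 and the 11 at E12.5. Of 5 blood and endothelium markers, 2 passed that threshold at E11.5 and 1 at E12.5, so somatic markers did not all behave alike. The mark is that of the Polycomb system, whose proteins were not profiled, and it does not measure expression.

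Most known imprints rest on DNA methylation laid down in the egg or sperm. At a smaller number of genes the oocyte instead passes on H3K27me3, the maternal copy is silenced in the early embryo, and the paternal copy is expressed. This type of imprint is mostly lost in the embryo proper and is kept, at some of the genes, in extraembryonic tissue such as the placenta. Primordial germ cells derive from the embryo proper and go through an erasure of inherited epigenetic marks.

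Polycomb occupancy in mouse cells is typically centred on CpG-rich promoters, so the promoters of the genes were examined for CG dinucleotides. RefSeq promoter windows (GRCm38.p6, the assembly that mm10 names; 250 bases before to 50 bases after a start site) were matched for 6 of the 9 genes, all but Smoc1, Bbx and Slc38a1. The windows printed here are 4 of them, chosen to set the imprinted genes Sfmbt2, Gab1 and Slc38a4 beside the neighbour Slc38a2. Capitals mark CG, which reads the same on both strands. Each is given 5′ to 3′ on the strand of its gene.
Sfmbt2, chr2:10372186-10372485, plus strand: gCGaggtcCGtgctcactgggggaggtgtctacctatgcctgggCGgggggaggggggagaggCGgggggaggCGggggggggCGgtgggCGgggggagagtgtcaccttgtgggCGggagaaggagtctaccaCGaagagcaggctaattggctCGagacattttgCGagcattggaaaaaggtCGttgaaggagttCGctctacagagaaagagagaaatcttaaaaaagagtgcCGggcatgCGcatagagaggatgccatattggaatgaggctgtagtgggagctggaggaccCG
Gab1, chr8:80880470-80880769, minus strand: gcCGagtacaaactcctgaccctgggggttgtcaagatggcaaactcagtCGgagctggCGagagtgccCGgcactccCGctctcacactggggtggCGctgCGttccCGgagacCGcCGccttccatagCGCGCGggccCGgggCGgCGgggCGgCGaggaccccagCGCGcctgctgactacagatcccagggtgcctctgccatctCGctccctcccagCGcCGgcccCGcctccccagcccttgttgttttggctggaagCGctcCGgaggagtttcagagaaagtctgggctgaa
Slc38a4, chr15:97055907-97056206, minus strand: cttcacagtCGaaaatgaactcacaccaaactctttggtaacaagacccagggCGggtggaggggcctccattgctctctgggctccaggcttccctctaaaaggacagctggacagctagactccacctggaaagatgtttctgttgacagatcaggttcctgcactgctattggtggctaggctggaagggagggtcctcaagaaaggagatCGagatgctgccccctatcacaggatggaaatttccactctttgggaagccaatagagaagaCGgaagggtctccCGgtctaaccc
Slc38a2, chr15:96699679-96699978, minus strand: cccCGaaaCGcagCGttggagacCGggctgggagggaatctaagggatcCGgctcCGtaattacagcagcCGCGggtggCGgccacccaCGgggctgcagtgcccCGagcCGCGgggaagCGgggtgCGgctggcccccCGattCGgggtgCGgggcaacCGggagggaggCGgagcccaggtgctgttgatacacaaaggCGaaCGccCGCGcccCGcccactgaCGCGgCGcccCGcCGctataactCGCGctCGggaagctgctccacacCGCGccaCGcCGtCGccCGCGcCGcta

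The Slc38a2 window held 41 CG, more than 96.5% of the 32851 promoter windows in the table, whose median was 7 and of which 94.6% held at least 1. The Gab1 window held 26 and the Sfmbt2 window 16, and the window of the other Sfmbt2 start, at chr2:10370201-10370500, held 9. All 3 Slc38a4 windows held 5, fewer than the median. Etv6 had 17, and the 4 windows of Jade1 had between 14 and 38. The imprinted genes thus included promoters on both sides of the median CG count. The deposited counts are sums over gene bodies and do not resolve these windows.

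None of the 9 genes was at least 2-fold above IgG of the same stage. Of autosomal genes, 17.2% passed that threshold at the earlier stage and 15.2% at the later. At least 2-fold below IgG were 5 members at E11.5 (Gab1, Jade1, Etv6, Bbx and Slc38a2) and 4 at E12.5 (Gab1, Jade1, Smoc1 and Etv6), where 29.7% and 29.5% of autosomal genes were. Against IgG E13.5, the 2 members at least 2-fold below at E12.5 were Jade1 (-1.05 on the log2 scale) and Bbx (-1.50), while Gab1 (-0.94), Smoc1 (-0.83) and Etv6 (-0.97) no longer passed. In that comparison 21.6% of autosomal genes had a lower ratio than Jade1. At E11.5, Slc38a2 (-0.71) no longer passed. As log2 ratios, taken after adding 1 RPM to each level, the members had medians of -1.04 (E11.5) and -0.95 (E12.5). The median was -0.49 and -0.54 over all autosomal genes that had 20 reads or more in both libraries of a comparison together. Levels are relative to all autosomal reads, so a gene is best read against that autosomal median. With the median set to 0, the members at least 2-fold below numbered 1 at the earlier stage and 0 at the later, where Slc38a1 was at least 2-fold above. Slc38a1 was the one member with a positive ratio at both stages, 0.37 and 0.58.

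**Figure D1:**
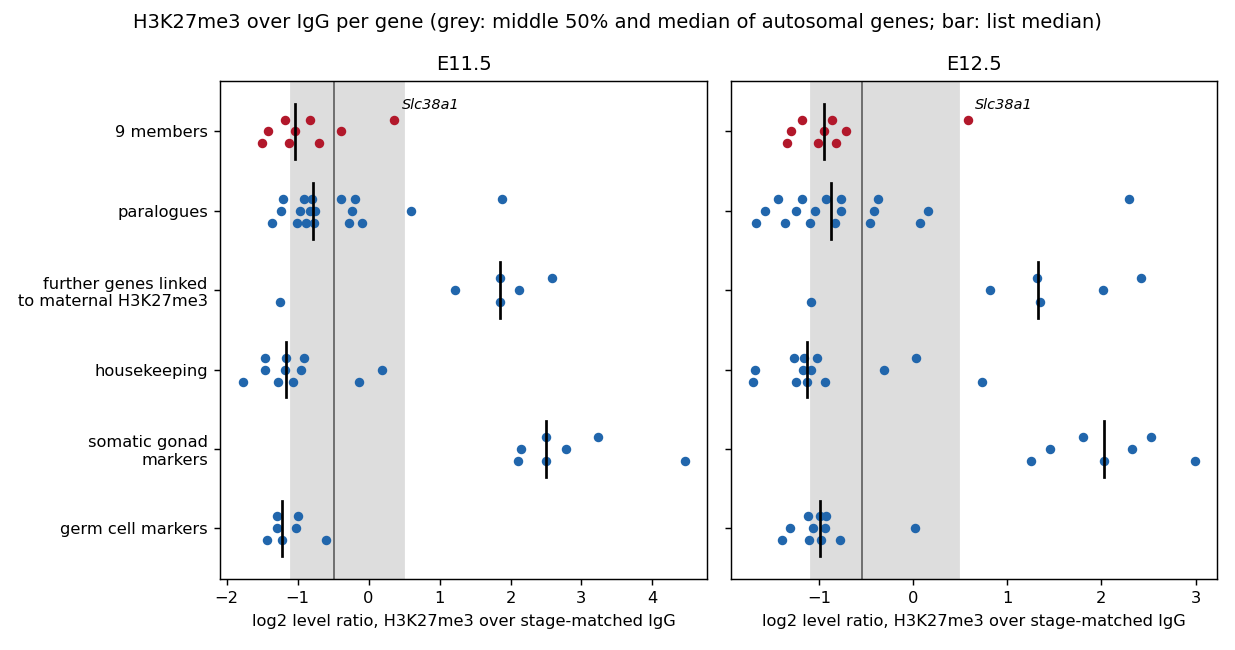
Each point is a gene, placed by the log2 ratio of its H3K27me3 level to that of stage-matched IgG, at E11.5 (left) and E12.5 (right); grey marks the middle 50% and the median of autosomal genes, and black bars mark list medians. Of the 9 members, 8 lie below 0 at both stages and Slc38a1 lies at 0.37 and 0.58, while somatic gonad markers have medians of 2.50 and 2.03. The medians of autosomal genes are below 0 too, at -0.49 and -0.54.

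Other groups of genes give a scale for these ratios. Housekeeping genes had medians of -1.16 at E11.5 over 11 genes and -1.13 at E12.5 over 13. The germ cell markers had medians of -1.22 over 7 and -0.99 over 11. The 39 Hox genes, textbook Polycomb targets, had medians of 3.07 over 29 genes and 2.83 over 32. Canonical imprinted genes, whose imprints rest on DNA methylation, had medians of 0.67 over 24 genes and -0.11 over 23, with 10 and 7 at least 2-fold above IgG. A further list held 6 genes that have been linked to maternal H3K27me3 in early embryos (Otx2, Sall3, Runx1, Prox1, Tle3 and Rbms1). Its medians were 1.85 and 1.33, with 5 and 4 genes at least 2-fold above IgG, and Rbms1 at -1.25 and -1.09. Otx2, Sall3, Runx1 and Prox1 encode developmental transcription factors. Runx1 had 1771 and 3930 H3K27me3 reads, with second-allele shares of 46.7% and 47.6%. Their list had median shares of 51.7% and 48.0%.

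Sfmbt2 encodes a protein with malignant brain tumour repeats that belongs to the Polycomb group (chr2:10370440-10595253, here and below the whole gene in GRCm38.p6). It was the member with the clearest excess of first-allele reads. At E11.5 it had 193 first-allele and 108 second-allele H3K27me3 reads, and at E12.5 394 and 248. The second-allele share was 35.9% (30.5 to 41.6) at E11.5 and 38.6% (34.8 to 42.5) at E12.5. In IgG the shares were 50.4% (44.4 to 56.3) at E11.5, 50% (44.4 to 55.6) at E12.5 and 47.0% (44.2 to 49.7) at E13.5. Both H3K27me3 intervals thus lay below all 3 IgG intervals. The difference from stage-matched IgG was -14.5 points (-22.3 to -6.44) at E11.5 and -11.4 points (-18.0 to -4.70) at E12.5.

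The Sfmbt2 skew did not come with a first-allele level above IgG. The first allele stood at 81.9 and 78.5 RPM at E11.5 and E12.5, against 103 and 105 in stage-matched IgG, which is 0.794-fold (0.636 to 0.994) and 0.748-fold (0.621 to 0.905). The second allele stood at 45.8 and 49.4, against 105 in both IgG libraries, which is 0.438-fold (0.338 to 0.567) and 0.471-fold (0.384 to 0.578). For both alleles together the autosomal median was 0.714-fold and 0.687-fold, so the first allele of Sfmbt2 lay near it and the second lay below it. Among autosomal genes with at least 200 reads, 58 of 2741 had a lower share than Sfmbt2 at E11.5 and 199 of 5102 at E12.5.

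**Figure D2:**
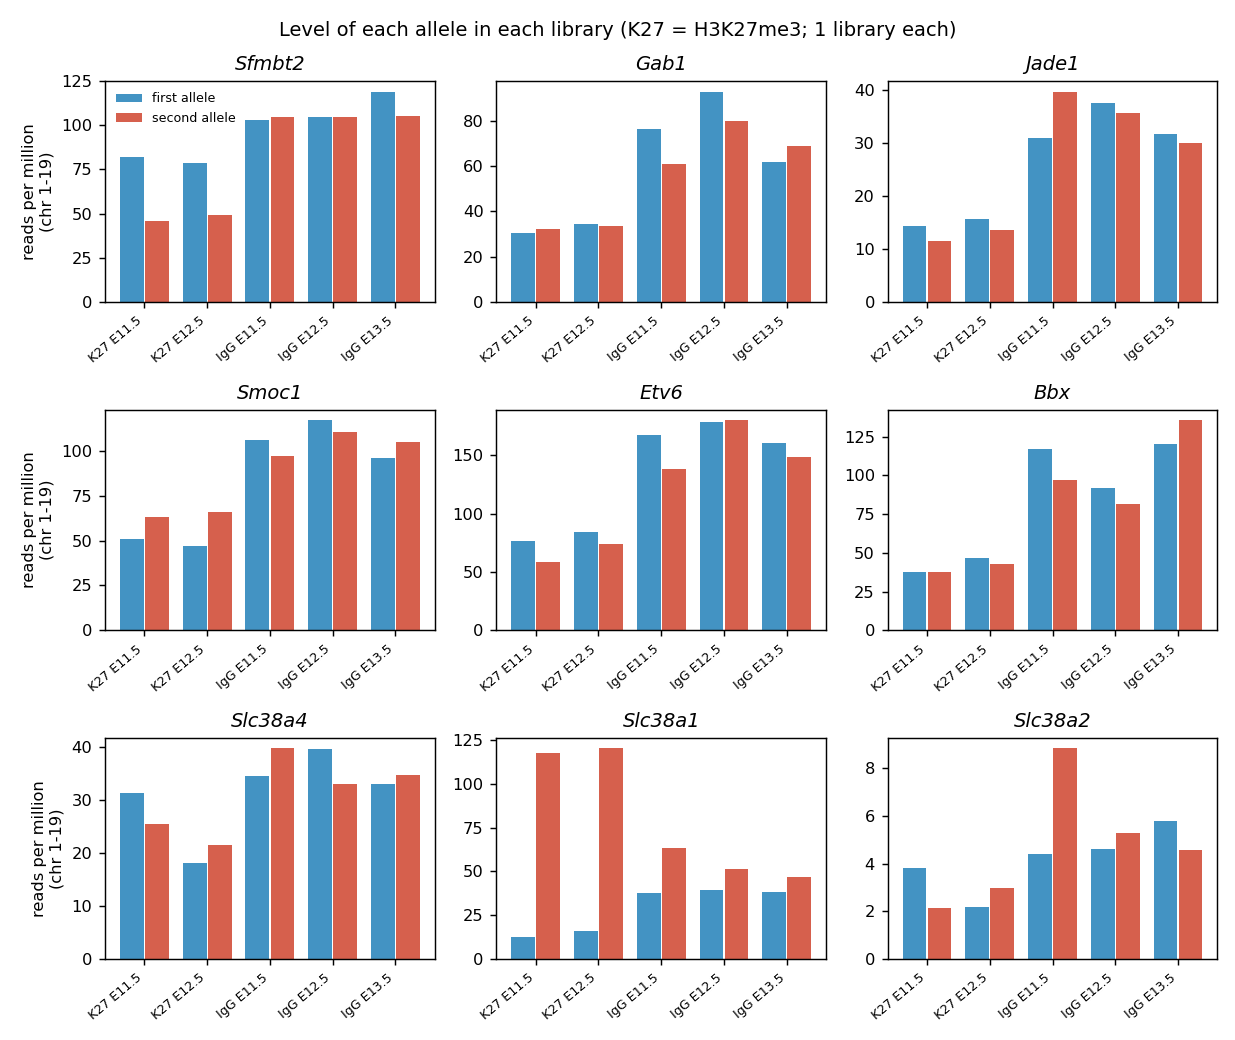
Bars give the first-allele (blue) and second-allele (red) level of each member in RPM, 1 panel per gene with its own scale from 0, for the 2 H3K27me3 libraries (K27) and the 3 IgG libraries. In Sfmbt2 the second-allele bars are lower in H3K27me3 (45.8 and 49.4), and in Slc38a1 the second-allele bars are far higher than the first (118 against 12.3 at E11.5).

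Gab1 encodes a docking protein that couples receptor tyrosine kinases to downstream signalling (chr8:80764431-80880519). Its H3K27me3 reads numbered 148 and 341, and its levels were 62.8 and 67.9 RPM, against 138, 173 and 131 in IgG at E11.5, E12.5 and E13.5. Both H3K27me3 levels were below all 3 IgG levels, at 0.456-fold (0.365 to 0.569) and 0.393-fold (0.334 to 0.463) of stage-matched IgG. Its second-allele shares were 51.4% (43.0 to 59.6) and 49.3% (43.8 to 54.7). IgG shares ran from 44.4% to 52.6%, and the intervals of both antibodies overlapped.

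Jade1, also known as Phf17, encodes a scaffold of the HBO1 histone acetyltransferase complex (chr3:41555734-41616864). It had 61 and 147 H3K27me3 reads, at levels of 25.9 and 29.3 RPM, and between 61.7 and 73.2 in the IgG libraries. The ratios to stage-matched IgG were 0.366 (0.261 to 0.510) and 0.400 (0.310 to 0.516). The second-allele shares of 44.3% (31.5 to 57.6) and 46.3% (38.01 to 54.7) had intervals that included 50% and overlapped those of IgG. Both intervals also held shares more than 10 points below 50%. The difference from stage-matched IgG was -12.0 points (-27.1 to 3.95) at E11.5 and -2.39 points (-14.5 to 9.76) at E12.5.

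Smoc1 encodes a secreted calcium-binding matrix protein that modulates BMP signalling (chr12:81026808-81186414). It leaned toward the second allele, at E12.5 by more than its counting error. The share was 55.4% (49.2 to 61.4) of 269 reads at E11.5 and 58.5% (54.3 to 62.6) of 566 reads at E12.5. In IgG it was 47.8%, 48.6% and 52.2% at E11.5, E12.5 and E13.5. The difference from stage-matched IgG was 7.56 points (-0.820 to 15.8) at E11.5 and 9.93 points (3.26 to 16.5) at E12.5, and against IgG E13.5 it was 3.17 (-3.46 to 9.67) and 6.26 (1.25 to 11.2). At E12.5, 12.4% of autosomal genes with at least 200 reads had a higher share. The first allele was at 0.399-fold (0.327 to 0.487) of IgG and the second at 0.595-fold (0.493 to 0.720) at E12.5.

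Etv6 encodes an ETS-family transcriptional repressor needed for blood formation (chr6:134035700-134270158), and Bbx encodes an HMG-box transcription factor (chr16:50191844-50432466). Etv6 had 318 and 790 H3K27me3 reads and second-allele shares of 43.4% (37.9 to 49.0) and 46.7% (43.2 to 50.3). In male IgG of E11.5 the Etv6 share was 45.3% (40.4 to 50.2), close to that of H3K27me3 at the same stage. Bbx had shares of 49.7% (42.1 to 57.3) of 177 reads and 48.0% (43.3 to 52.7) of 450 reads. Both genes were read below IgG, Etv6 at 0.441-fold and 0.439-fold, and Bbx at 0.350-fold (0.289 to 0.424) and 0.517-fold (0.443 to 0.604). The IgG level of Bbx itself differed between libraries, at 214, 174 and 256 RPM, which enters its ratios.

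Slc38a4 encodes a sodium-coupled amino acid transporter and lies at chr15:96994816-97055956. Its second-allele share was 44.8% (36.2 to 53.6) at E11.5 and 54.3% (47.1 to 61.3) at E12.5, from 134 and 199 H3K27me3 reads. IgG gave 53.5%, 45.5% and 51.2% at E11.5, E12.5 and E13.5, and all 5 intervals overlapped each other and 50%. The level was 56.9 RPM at E11.5 and 39.6 at E12.5, against 74.4, 72.6 and 67.8 in IgG. This was 0.764-fold (0.586 to 0.9997) and 0.546-fold (0.431 to 0.696) of stage-matched IgG. With the autosomal median set to 0, its log2 ratio at E11.5 went from -0.38 to 0.10, so its direction there depends on the scaling.

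Slc38a1, a sodium-coupled glutamine transporter gene at chr15:96571418-96643438, was strongly one-sided in H3K27me3. It had 29 first-allele and 278 second-allele reads at E11.5, and 81 and 604 at E12.5. The second-allele share was 90.6% (86.7 to 93.6) and 88.2% (85.5 to 90.5). In IgG the share was 62.8% (54.1 to 70.9) in males of E11.5, 56.5% (47.8 to 64.9) at E12.5 and 55.1% (50.6 to 59.6) at E13.5. IgG thus leaned toward the same allele by less, and neither H3K27me3 interval overlapped any IgG interval. The difference from stage-matched IgG was 27.8 points (19.2 to 36.6) at E11.5 and 31.7 points (23.2 to 40.3) at E12.5.

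Both alleles of Slc38a1 departed from IgG, in opposite directions. The second allele stood at 118 and 120.3 RPM at E11.5 and E12.5, against 63.3 and 51.5 in stage-matched IgG, or 1.86-fold (1.46 to 2.40) and 2.34-fold (1.84 to 2.999). The first allele stood at 12.3 and 16.1, against 37.6 and 39.6, or 0.328-fold (0.2002 to 0.527) and 0.408-fold (0.288 to 0.579). At E12.5 Slc38a1 was the 1 member of 9 with a second-allele level at least 2-fold above IgG on the log2 scale, a threshold that 15.5% of autosomal genes passed. At E11.5 it was 0 of 8 members with enough second-allele reads, and 19% of genes. A first-allele level at least 2-fold below IgG was found in 6 of 8 members at each stage, Slc38a1 among them, and in 29.8% and 27.1% of genes. Except in Slc38a1, the second allele of these members was below IgG too. At E11.5 it was at 0.528-fold in Gab1, 0.288-fold in Jade1, 0.650-fold in Smoc1, 0.423-fold in Etv6 and 0.384-fold in Bbx. At E12.5 it was at 0.419-fold in Gab1, 0.380-fold in Jade1, 0.595-fold in Smoc1, 0.408-fold in Etv6 and 0.652-fold in Slc38a4. The same count was not made for the second allele. Among genes with at least 200 reads, 13 of 2741 had a higher share than Slc38a1 at E11.5 and 38 of 5102 at E12.5.

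**Figure D3:**
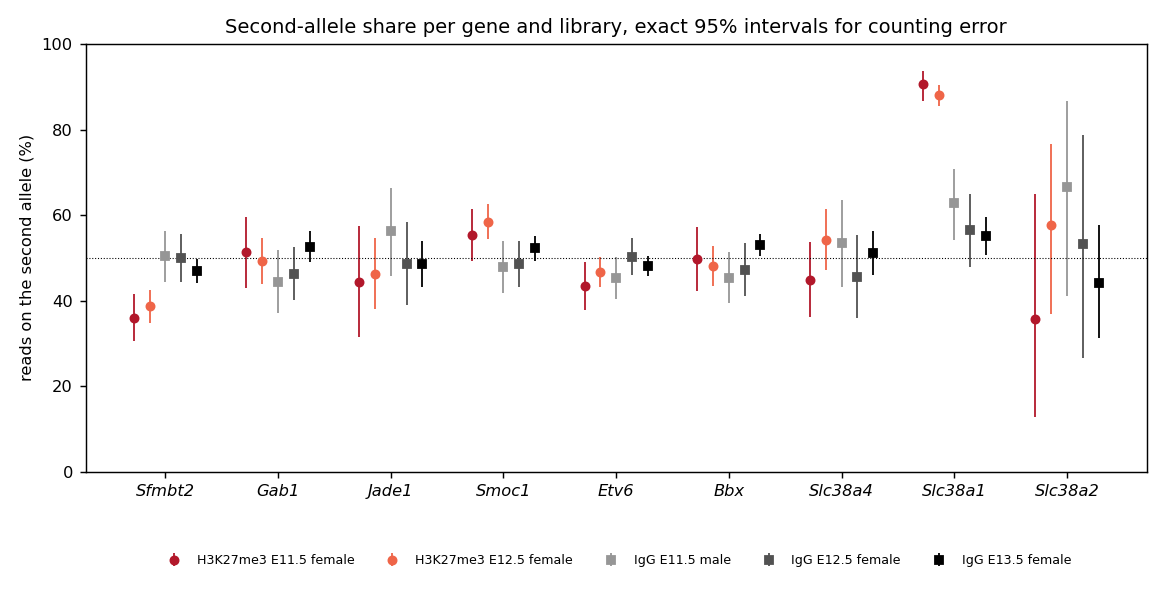
Points give the percent of a gene's reads on the second allele in each of the 5 libraries (circles H3K27me3, squares IgG), with exact 95% intervals for counting error; the dotted line marks 50%. Slc38a1 lies at 90.6% and 88.2% in H3K27me3 and Sfmbt2 at 35.9% and 38.6%, both outside their IgG intervals.

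Slc38a2, a sodium-coupled neutral amino acid transporter gene (chr15:96687392-96699728), was the shortest member and had few reads. It had 14 and 26 H3K27me3 reads, and 18, 15 and 59 in IgG at E11.5, E12.5 and E13.5. Its share of 35.7% at E11.5 carried an interval from 12.8 to 64.9, and its share of 57.7% at E12.5 one from 36.9 to 76.6. These counts could not show which way, if any, the gene leaned. Its level was 0.448-fold (0.206 to 0.954) and 0.523-fold (0.267 to 1.06) of stage-matched IgG.

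By the threshold of 10 points, Slc38a1 was the member above 50% at both stages, and Sfmbt2 was below 50% at both. Slc38a2 was below at E11.5, on 14 reads. Members at least 10 points from 50% thus numbered 3 at E11.5 and 2 at E12.5, as did 32.2% and 27% of autosomal genes with at least 10 reads. Since sparse genes pass such a threshold by counting error, the same was counted over genes with at least 200 reads. There 10.4% lay above and 5.11% below at E11.5, and 9.94% and 5.37% at E12.5. Of the 4 members with that depth at E11.5, Slc38a1 passed above and Sfmbt2 below, and the same held of the 6 at E12.5. The number of members past the threshold is too small to set against these shares.

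The 3 Slc38a genes lie in 1 stretch of chromosome 15, and Slc38a1 stood apart from the genes around it that had enough reads. Slc38a1 and Slc38a2 are 44.0 kb apart, and Slc38a2 and Slc38a4 295 kb. Arid2, encoding a subunit of the PBAF chromatin remodeller, lies on the other side of Slc38a1, 166 kb away. Its second-allele share was 50.9% (41.3 to 60.5) of 112 reads and 51.1% (44.5 to 57.7) of 233 reads. Scaf11, a splicing factor gene between Arid2 and Slc38a1, had 54.2% of 24 and 54.1% of 74 reads. Beyond Slc38a4, Pced1b had 58.1% (52.4 to 63.7) of 308 and 63.3% (59.6 to 66.8) of 708 reads, with IgG shares between 51.0% and 52.9%. Pced1b thus leaned to the same allele as Slc38a1, by less, and the intervals of Slc38a4, which lies between them, included 50%.

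**Figure D4:**
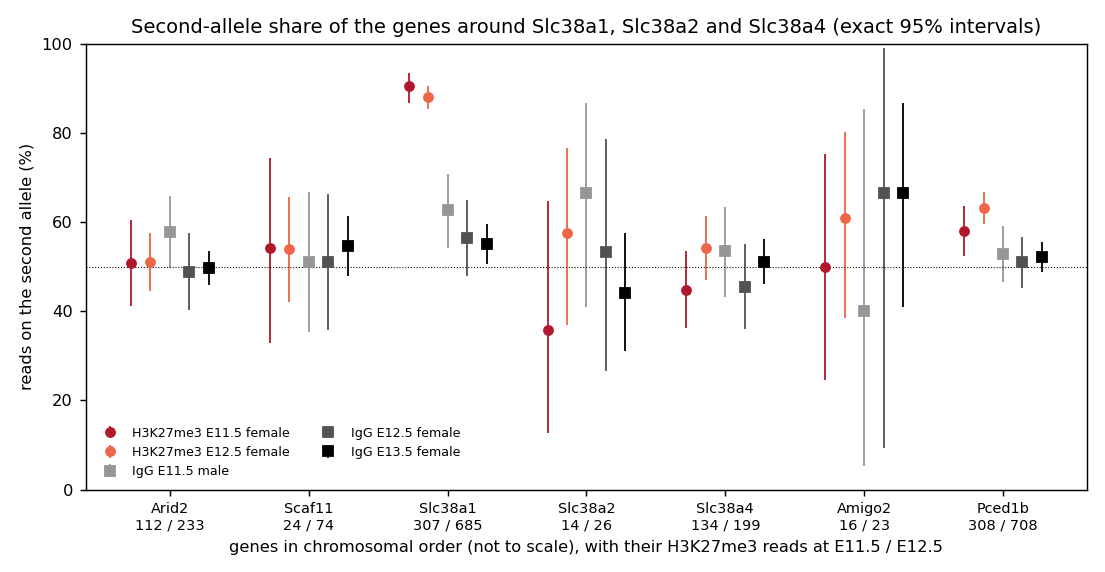
Second-allele shares in the 5 libraries for the 7 genes around Slc38a1, Slc38a2 and Slc38a4, in chromosomal order and not to scale, with exact 95% intervals; the numbers under the names are the H3K27me3 reads at E11.5 and E12.5. Slc38a1 lies at 90.6% and 88.2%, and the wide intervals of Slc38a2 and Amigo2 go with 26 reads or fewer.

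Genes within 500 kb of the other members were described in the same way. On the lower-coordinate side of Sfmbt2, Itih5, a serum inhibitor heavy-chain gene, had 51.6% and 57.5%, and no gene with a matched position lay on the other side. The 4 neighbours of Sfmbt2 with at least 50 reads lay between 49.4% and 57.5% at E12.5, and none had its first-allele excess. Near Bbx, Cd47, encoding a surface protein that restrains phagocytosis, had 59.8% (54.6 to 64.8) of 373 and 61.9% of 796 H3K27me3 reads. Its IgG shares were 40.6%, 45.3% and 50.6% at E11.5, E12.5 and E13.5, while Bbx was even. Slc8a3, a sodium-calcium exchanger gene beside Smoc1, had 58.0% and 56.9%, close to the 55.4% and 58.5% of Smoc1. Susd6, on the other side of Smoc1, had 54.1% and 54.9%. Near Gab1, Inpp4b, a lipid phosphatase gene, had 43.0% and 44.7% and Frem3 47.5% and 51.7%. Sclt1, a centriole gene beside Jade1, had 60.4% and 53.2%, and Bcl2l14, beside Etv6, had 43.7% and 46.2%, close to the values of Etv6. The IgG shares of Bcl2l14 were 30.3%, 43.75% and 48.8% at E11.5, E12.5 and E13.5, so its IgG reads leaned to the first allele as well.

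Between E11.5 and E12.5, no member's level differed by at least 1.5-fold, as 10.1% of autosomal genes did. The largest shift was that of Slc38a4, whose level at E12.5 was 0.697-fold (0.557 to 0.874) that of E11.5. Its first allele was at 0.577-fold (0.420 to 0.795) and its second at 0.845-fold (0.611 to 1.18). Bbx was at 1.19-fold (1.0007 to 1.43) and Etv6 at 1.17-fold (1.02 to 1.33), both higher at E12.5. Sfmbt2 was at 1.001-fold (0.872 to 1.15) and Slc38a1 at 1.05-fold (0.914 to 1.20).

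The second-allele share differed by at least 10 points between stages in 1 member, Slc38a2, and in 25.7% of autosomal genes. The Slc38a2 difference was 22.0 points on 14 and 26 reads, with an interval from -9.69 to 47.6. Slc38a4 differed by 9.495 points (-1.44 to 20.1), toward the second allele at E12.5. The differences of Sfmbt2 (2.75 points, -3.93 to 9.21) and Slc38a1 (-2.38 points, -6.21 to 2.01) had intervals that included 0. Their skews were thus of similar size in the 2 H3K27me3 libraries, which are separate libraries of different stages and no replicates.

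Per length of gene body, the members differed in level by several fold. In H3K27me3, Slc38a1 had 1.82 and 1.91 RPM per kb at E11.5 and E12.5, the highest of the 9. Slc38a4 had 0.930 and 0.648 and Smoc1 0.715 and 0.706, so that Slc38a4 came next at E11.5 and Smoc1 at E12.5. Bbx was lowest at both stages, with 0.312 and 0.373. The remaining members lay between 0.420 and 0.671 over both stages, Etv6 being the highest of them. In IgG the members lay between 0.721 for Bbx and 1.53 for Etv6, both at E12.5. The density of variants per gene is not given in the sources used here, so these levels compare genes only roughly.

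Paralogues of the members, 18 genes in all, gave a similar picture. Their median log2 ratios were -0.78 and -0.88, and 1 of 18 was at least 2-fold above IgG at each stage. This was Etv2, a regulator of blood and vessel formation, at 1.87 and 2.29 from 19 and 52 H3K27me3 reads. Stage-matched IgG held only 2 Etv2 reads at each stage, so both ratios are uncertain. Smoc2 was at 0.60 and 0.16, with shares of 55.7% and 57.1% in 616 and 1154 reads. Of the other amino acid transporters of the family, Slc38a3 had shares of 71.9% of 57 and 63.4% of 153 reads, against 48.6% and 45.3% in stage-matched IgG. Slc38a11 had 34.95% of 103 and 46.9% of 254 reads. Sfmbt1, the relative of Sfmbt2, had 57.6% and 52.0%, and Etv1, a relative of Etv6, had 38.3% and 39.1%.

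Genes with the most similar profile were sought over 5392 other autosomal genes, by the root mean square difference of the 8 log2 per-allele levels relative to IgG E13.5. For Slc38a1 they were Wdfy3 (0.305), Dbt (0.341) and Ctnnal1 (0.360), where the median gene was at 1.20. Wdfy3 encodes an adaptor of selective autophagy, Dbt a subunit of branched-chain ketoacid dehydrogenase and Ctnnal1 a catenin-like protein. Their E12.5 shares were 78.2%, 79.4% and 86.3%, on chromosomes 5, 3 and 4. For Sfmbt2 they were Cyb5a (0.139), Ppm1l (0.145) and Gpd2 (0.146), of which Ppm1l and Gpd2 had E12.5 shares of 37.3% and 37.0% and Cyb5a 60.5%. For Slc38a4 they were Hsd17b2, Glt8d2 and Ppcdc, at 0.141 to 0.167. The profile of Etv6 was nearest to that of Evl, at 0.0348. Such closeness rests on 5 libraries that all the genes share. The search used the per-allele levels themselves, so shares similar to those of a member follow in part from how the genes were picked.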

How the data were processed

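The deposited files give, per gene, read counts on a first and a second allele and the authors' fraction of those reads on the second allele. The counts are not normalised, and the fraction equals the second count over both in every gene with reads. Per the submitters' processing notes the build was mm10 and the tools included Trim Galore 0.6.6, Bowtie2 2.4.2, SAMtools 1.11, GATK and featureCounts. Their order, the handling of duplicates and how reads were assigned to alleles are all not given in the sources used here. PCR duplicates may remain, so intervals cover counting error alone. Gene positions and promoters came from RefSeq tables of GRCm38.p6.

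Libraries were scaled to reads on chromosomes 1 to 19 (RPM). Shares carry exact Clopper-Pearson intervals, differences of shares Newcombe intervals, and ratios of levels exact conditional binomial intervals (Python 3.11.15, scipy 1.17.1). Ratios used for thresholds are log2 ratios after adding 1 RPM to each level, over genes with 20 reads or more in both libraries together. The method was tested on simulated counts that carried counting error alone, so duplicates and spread between replicates were not part of that check. With 1 library per group no test between conditions was made. The members and lists were chosen with earlier results of these data known. Named genes were all members, their paralogues, the nearest gene on each side having 50 reads or more at both H3K27me3 stages, and the 3 genes of most similar profile. Scaf11, Amigo2 and the genes of the closing section lie within 500 kb of a member and were named after their values were seen. The counts over genes with at least 200 reads and the per-allele thresholds were added after the values were seen.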

Additional observations from a re-analysis of the deposited data

How the results depend on the processing

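No member was at least 2-fold above stage-matched IgG under any alternative run except centring, where the median log2 ratio of autosomal genes was set to 0 and 1 member, Slc38a1, passed at E12.5. Centring raised every ratio by 0.49 at E11.5 or 0.54 at E12.5, and the members at least 2-fold below IgG went from 5 to 1 at E11.5 and from 4 to 0 at E12.5. At E12.5, that number was 2 (Jade1 and Bbx, of which Jade1 was among the 4) with IgG E13.5 as the control and 8 with a 1.5-fold threshold. The autosomal median at E12.5 was itself 0.687-fold of stage-matched IgG, close to the 1.5-fold threshold. The share of autosomal genes past that threshold was not counted, so the 8 are not read as particular to the members. A 20-point threshold left 1 member, Slc38a1, away from an even share at each stage, in place of 3 and 2. Taken from the gene's own share in stage-matched IgG, 10 points or more were found in 4 members at E11.5 and 2 at E12.5. Taken from its share in IgG E13.5, they were found in 2 members at each stage. Between stages, 2 members differed in share by a 5-point threshold and 0 with at least 50 reads in both libraries, in place of 1. With IgG E13.5 or the 3 IgG libraries summed as the control, 15 of 18 single-gene ratios stayed inside their counting interval, and over all alternatives run 1 ratio changed sign, that of Slc38a4 at E11.5 (-0.38), which was 0.10 with centring. Subtracting scaled IgG reads per allele gave no usable share, since in every member at least 1 allele had fewer reads than IgG. No paired analysis was possible because each group had 1 library with a file; for the same reason no replicate could be left out. Depth limits Slc38a2 and Jade1 most.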

Other observations

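Some genes within 500 kb of the members had a higher H3K27me3 level over stage-matched IgG than any member at both stages, with 1 RPM added to each level. Gata3, a regulator of T cell and trophoblast development 482 kb from Sfmbt2, was at 6.03-fold at the earlier stage and 3.25-fold at the later, with second-allele shares of 57.4% and 54.3%. Ccdc177, near Smoc1, was at 8.98-fold and 2.61-fold on 159 and 181 H3K27me3 reads, with only 9 and 20 reads in stage-matched IgG. Between the stages, ratios of other neighbours moved in both directions. Galnt16, near Smoc1, went from 1.93-fold to 0.773-fold on 706 and 849 H3K27me3 reads, with 210 and 332 in stage-matched IgG. Inpp4b, near Gab1, went from 0.864-fold to 1.32-fold on 1533 and 3786 H3K27me3 reads, with 1023 and 868 in stage-matched IgG. Ift57, near Bbx, went from 0.498-fold to 0.935-fold on 68 and 170, with 80 and 55 in IgG. Kap, near Etv6, was at 1.20-fold and 4.92-fold on 15 and 36 reads, with 7 reads in IgG of E11.5 and 1 in IgG of E12.5. These genes were picked after their values were seen, the IgG library differs between the stages, and the part it has in these differences was not tested.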
